A study of Bos taurus with 54 samples.

Results

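The 10 genes described here belong to the unfolded protein response, the program that cells start when misfolded proteins gather in the endoplasmic reticulum (ER). They were taken by symbol (HSPA5, HSP90B1, PDIA4, HERPUD1, SDF2L1, XBP1, ATF4, ATF6, DDIT3 and TRIB3) from 32637 genes counted per library, and all 10 were found, matched the RefSeq table of the ARS-UCD2.0 assembly and passed the filter on low counts in both kits. The RNA came from the cell pellet of whole blood of Holstein male calves, after lysis of the red cells. The calves were sampled before heat (thermoneutral control) and after 12 h of heat in climate rooms (heat stress), and 3′ mRNA libraries were made with one of the kits SMART-Seq v4 3′ DE (Takara) and QuantSeq 3′ (Lexogen). For each kit, 13 control and 13 heat stress libraries were compared, with both times available for 12 animals. Control blood was drawn in the morning and heat stress blood in the evening, so heat and time of day cannot be told apart. Animal 20 was left out because its label and the design table of the study gave different times.

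The unfolded protein response starts from sensors in the ER membrane. PERK (EIF2AK3) phosphorylates eIF2α, which slows translation while allowing translation of ATF4, a transcription factor whose targets include DDIT3 (CHOP, a transcription factor linked to cell death under lasting stress) and TRIB3 (a pseudokinase that restrains ATF4). IRE1 (ERN1) splices the XBP1 mRNA into the form that encodes the active factor, and ATF6 is cut in the Golgi to release a transcription factor. These factors raise chaperones such as HSPA5 (BiP), HSP90B1 (GRP94), PDIA4 (ERp72) and SDF2L1, and HERPUD1, which takes part in ER-associated degradation. Splicing of XBP1, cleavage of ATF6 and translation of ATF4 are not read by counts from the 3′ ends of mRNA, so only mRNA levels are given.

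Reads on genes ranged from 5140595 to 20699030 in Takara and from 4516761 to 58521751 in Lexogen, where the next deepest library held 15607291. The Lexogen heat stress library of animal 18 stood apart, with 4604914 reads on genes and the fewest genes detected (9273, against a median of 13527 in its group). Several Lexogen time effects and correlations of changes are also given without it. The kit comparisons, the fits by run and the levels compared with HSPA5 were not repeated without it. PCR copies cannot be told from separate molecules without identifiers, so the totals overstate the counting precision. Levels are given as CPM, the count per 1000000 reads on genes after TMM scaling of the library size, and are compared between libraries for 1 gene and not between genes. Adjusted p-values come from the quasi-likelihood F test of edgeR, corrected by Benjamini-Hochberg over all genes tested, and a gene was called at an adjusted p under 0.05.

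After heat stress, ATF4, DDIT3 and HERPUD1 rose in Takara and ATF4 and HERPUD1 rose in Lexogen, by between 1.63- and 2.11-fold. The ER chaperones HSPA5, HSP90B1, PDIA4 and SDF2L1, the factors XBP1 and ATF6, and TRIB3 were not called in either kit. Blood is a mixture of cell types, and in bulk RNA a change in the number of cells of a type and a change of RNA per cell cannot be told apart. In Takara, 3 of 10 members were called higher and 0 lower, and 28.9% of the 12620 genes tested were called (18.4% higher and 10.5% lower). In Lexogen, 2 of 10 were called higher and 0 lower, and 5.55% of 11108 genes were called (5.09% higher and 0.459% lower). The share of members called in Takara was thus close to that of all genes. With the animal as a replicate block, 3 of 10 members were called in Takara (25.1% of all genes). There 6 of 10 had an unadjusted p under 0.05 by the same F test, as did 5097 of 12620 genes. With the block 0 of 10 were called in Lexogen (0.594% of all genes, or 66), where 2 members had an unadjusted p under 0.05. On sense counts 3 of 10 (29.4%) were called in Takara and 2 of 10 (5.75%) in Lexogen. The median log2 fold change of the members was 0.17 in Takara, against -0.05 over all genes, and 0.05 in Lexogen, against -0.08 over all genes. Scaling by total counts in place of TMM moved the median of all Takara genes by -0.22, and left 37.3% of the called genes higher in place of 63.8%. With that scaling the same 3 members were called in Takara, and the fitted changes of HSP90B1, SDF2L1, XBP1 and ATF6, which were not called, turned negative.

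**Figure D1:**
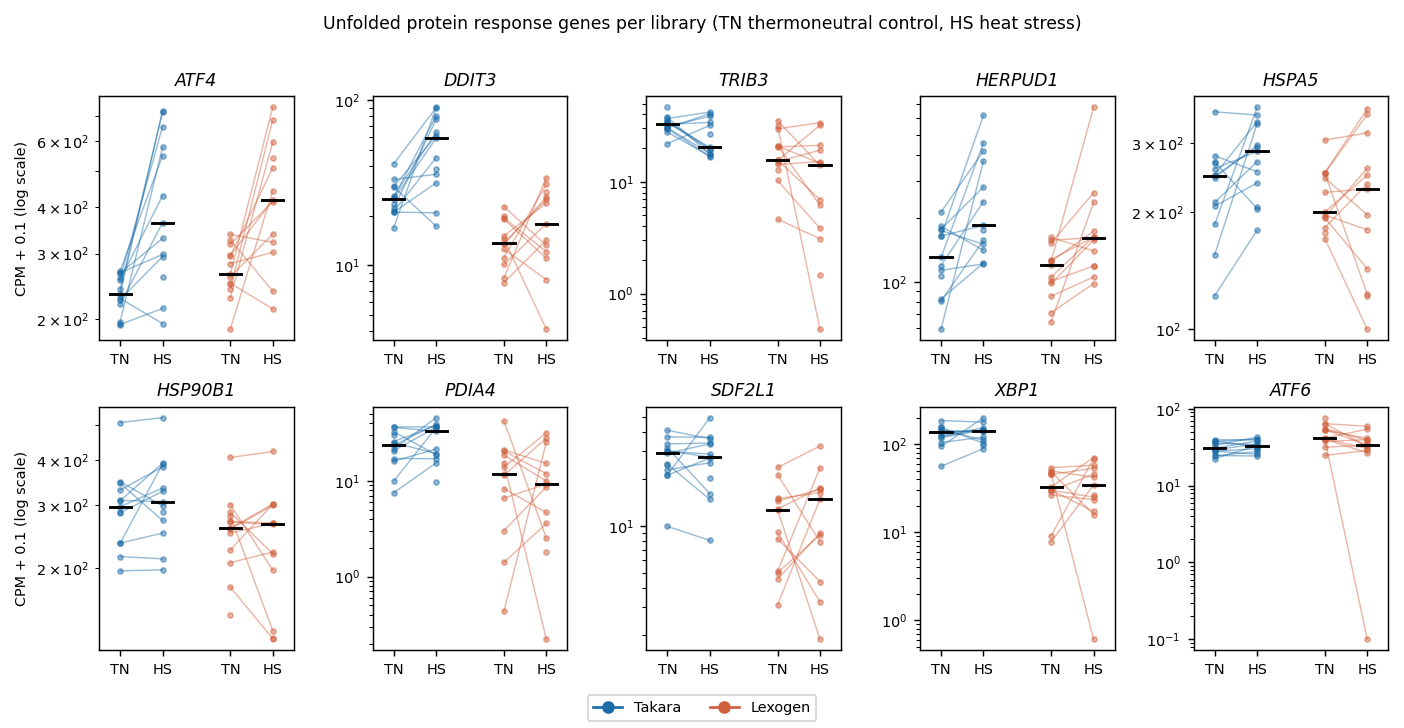
CPM of each gene in every library of the time comparison (vertical log axis, CPM + 0.1), with thermoneutral control (TN) and heat stress (HS) side by side for each kit; lines join the libraries of 1 animal and black bars are group medians. In Takara, 10 of 13 heat stress values of ATF4 lay above all controls, while those of HSPA5, HSP90B1 and XBP1 lay within or at most 1 value above the control range.

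ATF4 (chromosome 5, 110946624 to 110948719, ARS-UCD2.0) is the transcription factor at the centre of the PERK arm. In Takara its lowest, median and highest CPM were 194, 234 and 269.7 in controls and 195, 363 and 723 after heat stress. The control libraries lay close together (coefficient of variation 11.9%), whereas the heat stress libraries were spread widely (44.3%), and 10 of 13 exceeded every control. The level rose 1.84-fold (95% interval 1.42 to 2.38; log2 fold change 0.88, SE 0.18, adjusted p = 0.00113), with an increase in 11 of 12 animals and a decrease in animal 3. In Lexogen the CPM were 188, 264 and 338 in controls and 213, 417 and 739 after heat stress, with 9 of 13 above every control. The rise there was 1.63-fold (1.28 to 2.07; log2 0.70, SE 0.17, adjusted p = 0.0103), with an increase in 9 of 12 animals. It was called in all 14 fits that left out 1 animal each, and at 0.65 without animal 18, but not with the animal as a replicate block, where the log2 fold change was 0.58 with an adjusted p of 0.160.

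DDIT3 (chromosome 5, 55956303 to 55960510) is a target of ATF4 and overlaps MARS1 and LOC132345297 in the annotation. In Takara its lowest, median and highest CPM were 16.8, 25.1 and 41.1 in controls and 17.2, 58.8 and 90.4 after heat stress. The groups overlapped in their lower range, and 8 of 13 heat stress libraries exceeded every control. The level rose 2.11-fold (1.55 to 2.87; log2 1.08, SE 0.22, adjusted p = 0.000929) and was higher in 10 of 12 animals. In Lexogen the CPM were 7.77, 13.6 and 22.6 in controls and 4.01, 17.8 and 33.9 after heat stress, and the log2 fold change of 0.41 (SE 0.30, adjusted p = 0.544) was not called. In that kit the unstranded count of DDIT3 was only 52.8% of its sense count. On sense counts the Lexogen CPM were 11.3, 20.5 and 38.6 in controls and 17.7, 37.6 and 72.9 after heat stress, and the log2 fold change was 0.78 (SE 0.26), with an adjusted p of 0.0737. The Takara value was nearly the same on sense counts, 1.08.

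TRIB3 (chromosome 13, 60632819 to 60645777), another target of ATF4, was not called higher in either kit. In Takara its lowest, median and highest CPM were 21.8, 32.5 and 46.05 in controls and 16.7, 20.2 and 41.9 after heat stress. The heat stress libraries were divided, with 7 of 13 below every control and the other 6 within the control range, and 0 above it. The log2 fold change was -0.32 (SE 0.16; 95% interval -0.65 to 0.01; adjusted p = 0.129), with a lower value in 7 of 12 animals. In Lexogen the CPM were 4.53, 15.6 and 35.1 in controls and 0.382, 13.9 and 33.7 after heat stress, and the log2 fold change was -0.52 (SE 0.45, adjusted p = 0.622).

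HERPUD1 (chromosome 18, 24966368 to 24977795) encodes an ER membrane protein that helps to assemble the machinery of ER-associated degradation. In Takara its lowest, median and highest CPM were 59.5, 130.4 and 214 in controls and 122, 185 and 618 after heat stress, with 6 of 13 heat stress libraries above every control. The level rose 1.94-fold (1.35 to 2.79; log2 0.96, SE 0.26, adjusted p = 0.00651), and it was higher in 10 of 12 animals, by up to 2.65 on the log2 scale in animal 36. In Lexogen the CPM were 64.6, 121 and 163 in controls and 97.9, 162 and 674 after heat stress, and the highest value was that of animal 18 in both kits. The Lexogen rise was 1.72-fold (1.22 to 2.42; log2 0.78, SE 0.24, adjusted p = 0.0485) and present in 11 of 12 animals. That call lay near the threshold. It was lost on leaving out animal 7, 12, 16, 18, 19, 23, 29, 32, 36 or 40, with a log2 fold change of 0.51 and an adjusted p of 0.144 without animal 18, and with the animal as a replicate block (log2 0.66, adjusted p = 0.139).

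**Figure D2:**
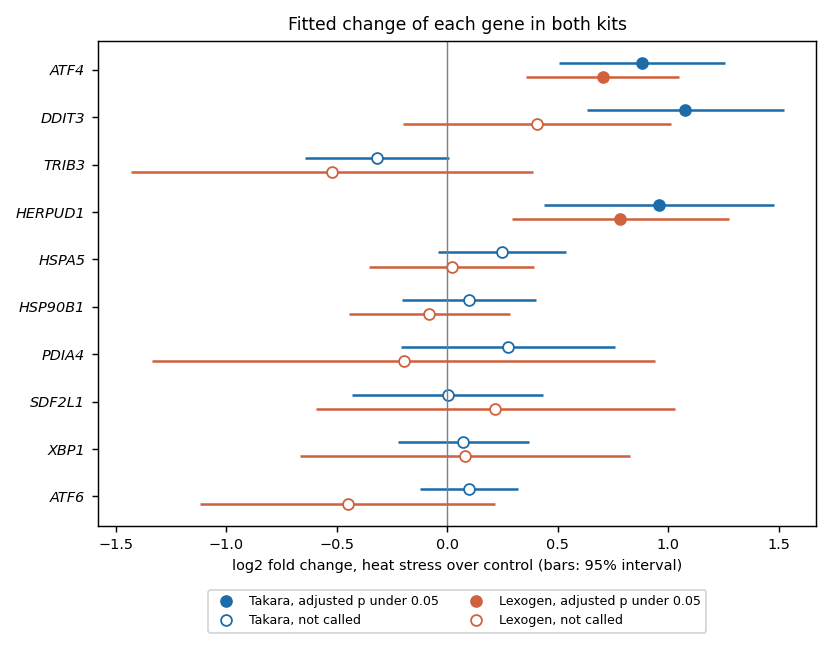
Log2 fold change of heat stress over control (horizontal axis) for each gene and kit, with 95% intervals as bars; filled points had an adjusted p under 0.05. ATF4 and HERPUD1 were called in both kits and DDIT3 in Takara, and the Lexogen intervals were wider for most genes.

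HSPA5 (chromosome 11, 96115158 to 96119452) encodes BiP, the main chaperone of the ER lumen, which also holds the sensors inactive. In Takara its lowest, median and highest CPM were 122, 247 and 361 in controls and 179, 286 and 371 after heat stress, and 12 of 13 heat stress libraries lay within the control range. The fold change was 1.19 (0.971 to 1.45; log2 0.25, SE 0.14, adjusted p = 0.188), with a higher value in 9 of 12 animals. In Lexogen the CPM were 170.5, 199.7 and 305 in controls and 99.7, 229 and 367 after heat stress. There the heat stress libraries spread to both sides, with 3 above and 4 below every control, and the log2 fold change was 0.02 (SE 0.18, adjusted p = 0.979).

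HSP90B1 (chromosome 5, 67600075 to 67618814), the ER member of the HSP90 family, held CPM of 196, 296 and 508 (lowest, median and highest) in Takara controls and 198, 306 and 525 after heat stress. The ranges coincided almost entirely, and the fold change was 1.07 (0.869 to 1.32; adjusted p = 0.640). In Lexogen the values were 148, 258 and 406 against 127, 265 and 422, with a log2 fold change of -0.08 (SE 0.18, adjusted p = 0.883). SDF2L1 (chromosome 17, 72112697 to 72114638), a partner of ER co-chaperones, held 9.81, 29.1 and 40.9 CPM in Takara controls and 7.95, 27.4 and 49.4 after heat stress, a fold change of 1.00 (0.741 to 1.35; adjusted p = 0.998). In Lexogen its CPM were 3.01, 12.6 and 23.6 against 1.77, 14.7 and 32.4 (log2 0.22, SE 0.40, adjusted p = 0.856), where the lowest heat stress value was that of animal 18 and the log2 fold change without that animal was 0.35 (SE 0.38). For HSPA5, HSP90B1 and SDF2L1 the Takara intervals ended below a 1.5-fold rise, and smaller rises lay within them.

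PDIA4 (chromosome 4, 112198598 to 112215554), a protein disulfide isomerase, overlaps LOC100336368 in the annotation, and most of its reads were missing from the unstranded count. The unstranded count was 25.2% of the sense count in Takara and 48.9% in Lexogen. In Takara the unstranded CPM were 7.41, 23.3 and 36.5 in controls and 9.68, 32.7 and 45.5 after heat stress (log2 0.27, SE 0.24, adjusted p = 0.392). On sense counts they were 45.8, 101 and 156 against 60.1, 94.3 and 169.9, and the log2 fold change was 0.03 (SE 0.17). In Lexogen the unstranded CPM ran from 0.334 to 42.1 in controls and from 0.121 to 31.7 after heat stress (log2 -0.20, SE 0.56, adjusted p = 0.914), and the log2 fold change was -0.26 (SE 0.29) on sense counts. PDIA4 was not called on either count in either kit, and its unstranded values in Lexogen had a coefficient of variation of 83.0% in controls.

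**Figure D3:**
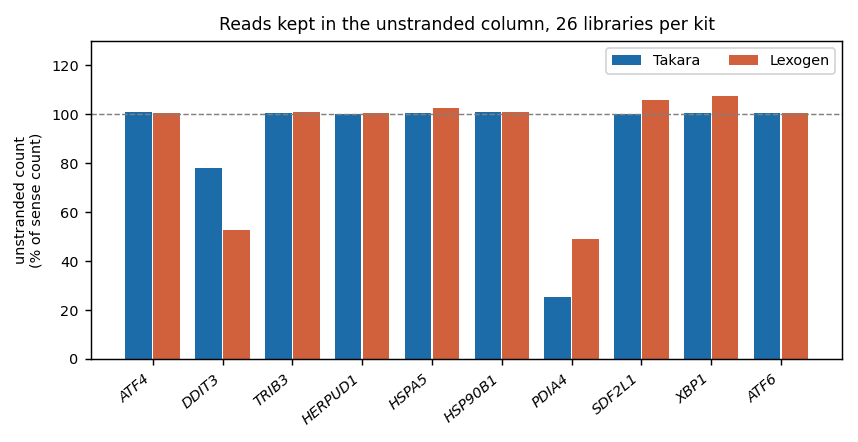
Unstranded count as a percentage of the sense count (vertical axis, from 0), summed over 26 libraries per kit, with a dashed line at 100. PDIA4 and DDIT3, which overlap other genes, stood between 25.2% and 77.9%, and the other 8 genes at 100% to 107%. The unstranded column also counts antisense reads, so the ratio is not the share of sense reads kept. The antisense count of DDIT3 was 22.2% of its sense count in Takara and 76.9% in Lexogen. ATF6 and XBP1 also overlap other genes in the annotation, and reads missing from both columns do not show in this ratio.

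XBP1 (chromosome 17, 68052009 to 68057008), the factor activated by IRE1 and needed by antibody-secreting plasma cells, had CPM of 55.9, 139 and 185 (lowest, median and highest) in Takara controls and 89.03, 141 and 200.1 after heat stress. The groups overlapped in 12 of 13 libraries, and the fold change was 1.05 (0.856 to 1.29; adjusted p = 0.736). In Lexogen the CPM were 7.71, 32.6 and 53.9 against 0.505, 34.4 and 70.4, where the lowest value, 2 counts, was that of animal 18. The log2 fold change was 0.08 (SE 0.37, adjusted p = 0.950) with that animal and 0.24 without it. ATF6 (chromosome 3, 7612098 to 7846084), the sensor that becomes a transcription factor, had CPM of 22.4, 30.6 and 39.6 in Takara controls and 24.2, 33.1 and 42.7 after heat stress, a fold change of 1.07 (0.919 to 1.25; adjusted p = 0.509). In Lexogen they were 24.7, 41.7 and 76.8 against 0, 33.6 and 59.3. The count of 0, which allows up to 3 counts, was also in the library of animal 18, whereas the Takara libraries of the same animal differed by only -0.13 on the log2 scale. The Lexogen log2 fold change of ATF6 was -0.45 (SE 0.33, adjusted p = 0.539), and -0.34 (SE 0.19) without animal 18. ATF6 overlaps LOC132344816 over 52902 bases in the annotation, which held 698 unstranded reads in Takara and 4494 in Lexogen. Whether reads that fall on both genes are missing from the ATF6 counts was not tested.

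Other genes of the response were taken as a list of 71 genes in 6 groups, of which 68 were tested in each kit. In Takara, 13 rose, 2 fell and 53 were not called, and the median log2 fold change was 0.04. With total counts as library size, 4 rose in Takara (DDIT4, EIF2AK3, HERPUD2 and TXNDC11) and 4 fell (ASNS, MBTPS2, DNAJC10 and ERLEC1). In Lexogen, 2 rose and 66 were not called. The share of the list called was 22.1% in Takara, below the 28.9% of all genes, and 2.94% in Lexogen, below the 5.55% of all genes. Among the sensors and their proteases, EIF2AK3 (PERK) rose from 20.3 ± 3.84 to 36.2 ± 17.7 CPM (SD, n = 13 each; log2 0.83, SE 0.18, adjusted p = 0.00159), ATF6B (a relative of ATF6) by 0.64 and ERN1 (IRE1) by 0.61. MBTPS2, the site-2 protease that cuts ATF6, fell by 0.53, so 3 of the 5 genes of this group rose and 1, a protease, fell. On sense counts the ATF6B (0.16) and ERN1 (0.51) changes were not called.

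In the PERK, eIF2α and ATF4 arm, 5 of 17 tested genes rose and 1 fell in Takara. DDIT4 (REDD1), a stress-induced inhibitor of mTORC1 that also responds to glucocorticoids and hypoxia, went from 8.25 ± 2.68 to 56.7 ± 57.4 CPM (SD, n = 13 each), a log2 fold change of 2.78 (SE 0.46, adjusted p = 0.000318), and was higher in 11 of 12 animals. It also rose in Lexogen, by 2.45 (SE 0.47, adjusted p = 0.00160), a call lost with the animal as a replicate block (1.54, adjusted p = 0.0608). The others were ATF3, a transcription factor (1.03), SLC3A2, an amino acid transporter chain (0.66), and PPP1R15B (0.62) and PPP1R15A (0.60), which target eIF2α for dephosphorylation. The ATF3 call was lost with the animal as a replicate block (0.72, adjusted p = 0.130). ASNS, asparagine synthetase and a target of ATF4, fell by 0.80 (SE 0.29, adjusted p = 0.0413) and was lower in 11 of 12 animals, a call lost when animal 3, 12, 15, 16, 23, 29, 36 or 40 was left out. The other 11 were not called, among them PHGDH (-0.45) and PSAT1 (0.09) of serine synthesis, SLC7A5 (-0.13), an amino acid transporter, and SESN2 (0.14), and CHAC1 and SLC7A11 did not pass the filter on low counts in either kit.

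Among 14 other ER chaperones and co-chaperones, DNAJB9 (ERdj4), which helps BiP to hold IRE1 inactive, rose by 0.81 (SE 0.20, adjusted p = 0.00456) in Takara, in all 12 animals, and SEC63 by 0.38, and 12 were not called. DNAJB9 was not called with total counts as library size. Among 15 genes of ER-associated degradation, HERPUD2, the paralog of HERPUD1, rose by 1.00 (SE 0.22, adjusted p = 0.00175) and DERL2, a channel component, by 0.39. Of the 9 translocon and signal peptidase genes, 0 were called in either kit by edgeR or DESeq2, with 0 in Takara and 1 in Lexogen at an unadjusted p under 0.05. Among 8 disulfide isomerases and oxidases, TXNDC11 alone was called, by 1.52 in Takara and 1.20 in Lexogen. With sense counts those values were 0.09 (adjusted p = 0.733) and -0.12 (adjusted p = 0.853), so neither call held when the strand was used. Of the 15 Takara calls in the list, 12 were also called on sense counts and 14 with the animal as a replicate block.

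**Figure D4:**
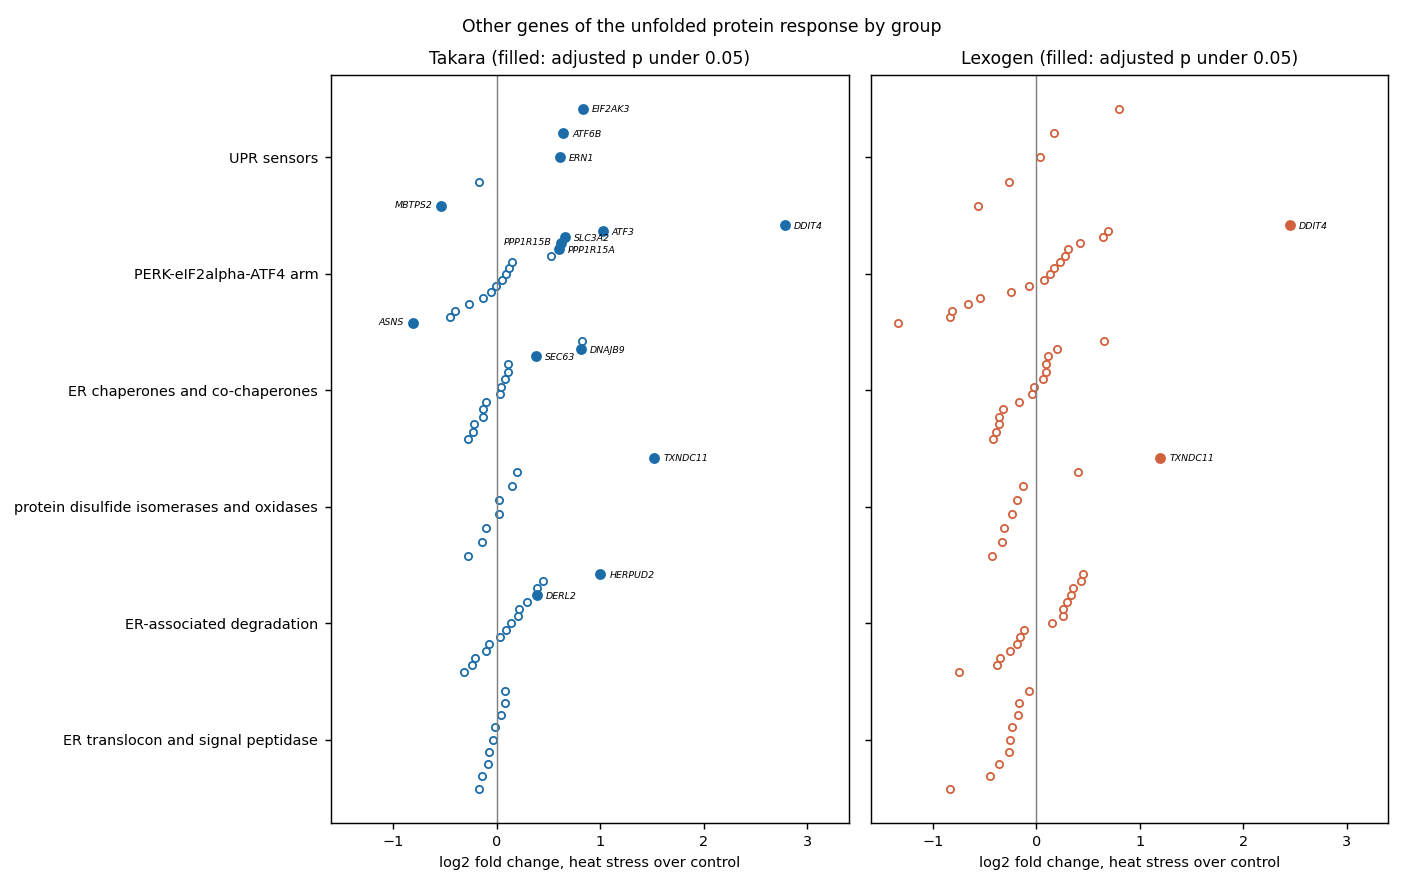
Log2 fold change of heat stress over control (horizontal axis) of the 68 other genes of the response tested in each kit, by group; filled and named points had an adjusted p under 0.05. Takara shows 13 genes higher and 2 lower (4 and 4 with total counts as library size), DDIT4 farthest out at 2.78, and Lexogen 2 higher, of which TXNDC11 did not hold on sense counts.

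Markers of the cell types of blood were read in the same libraries. Of the neutrophil markers, 5 of 6 rose in Takara and 4 of 6 in Lexogen, and their summed level ran from 4266 to 19672 CPM (median 11471) in Takara controls and from 3713 to 108906 (median 42275) after heat stress. In Lexogen the sum ran from 1179 to 6934 CPM in controls and from 1622 to 32469 after heat stress. Of 7 T cell markers, CD3D, CD3E and CD3G fell in Takara, and their list summed to 721 to 1474 CPM in controls and 439.5 to 1139 after heat stress. Of the plasma cell list, whose cells depend on XBP1, only PRDM1 was called (higher in both kits), and the sum was 318.6 to 814 CPM in Takara controls and 429 to 998 after heat stress. CD163 of 5 monocyte markers (Takara) and NCR1 of 5 natural killer markers (both kits) rose, and 0 B cell, platelet or erythroid markers were called in either kit by edgeR. At an unadjusted p under 0.05 there were 3 B cell markers in Takara and 1 erythroid marker in Lexogen, and DESeq2 called 1 platelet marker in Takara. With the animal as a replicate block, 3 B cell markers were called in Takara, and 0 neutrophil markers in Lexogen, where 6 of 6 had an unadjusted p under 0.05. The Lexogen calls of PRDM1 (0.76, adjusted p = 0.141) and NCR1 (1.24, adjusted p = 0.263) were lost with the block too. The platelet list summed to 1230 to 6352 CPM in Takara controls and 1296 to 3995 after heat stress. HBA, a red cell marker, was at 0 in all 26 Lexogen libraries of the time comparison. Only uniquely mapped reads were counted, so this 0 does not show that its RNA was absent. The erythroid list summed there to 125 to 630 CPM in controls and 146 to 651 after heat stress.

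The change within each animal was compared with the change of the summed neutrophil markers, which ranged from -1.09 to 4.28 on the log2 scale over the 12 Takara animals. HERPUD1 (Pearson r = 0.86, Spearman's rho = 0.87), ATF4 (0.82 and 0.76) and DDIT3 (0.75 and 0.87) were positively correlated with it and TRIB3 negatively (-0.75 and -0.83). The permutation p-values for Pearson's r, adjusted over 10 genes, were 0.00320, 0.0128, 0.0141 and 0.0196, and those for rho were 0.00255, 0.0153, 0.00255 and 0.00570. Without the 2 animals farthest from the median marker change, r was 0.84, 0.70, 0.63 and -0.68. Within the 2 runs of sample numbers, with 6 animals each, r was 0.89 and 0.92 for HERPUD1, 0.97 and 0.84 for ATF4, 0.95 and 0.94 for DDIT3, and -0.94 and -0.57 for TRIB3. The exact permutation p-values, unadjusted, were 0.025 and 0.00972 for HERPUD1, 0.0167 and 0.0361 for ATF4, and 0.00694 and 0.00694 for DDIT3. For TRIB3 they were 0.0431 and 0.240, so its correlation did not pass in run 2. The other 6 members did not pass, with r of -0.19 for HSPA5, -0.11 for HSP90B1, 0.18 for PDIA4, -0.45 for SDF2L1, 0.12 for XBP1 and 0.35 for ATF6. In Lexogen, HERPUD1 (r = 0.76, rho = 0.78, adjusted permutation p = 0.0306 and 0.0348) and DDIT3 (r = 0.74, rho = 0.76, 0.03525 and 0.0348) passed, and the other 8 did not, among them HSPA5 (r = -0.65, adjusted permutation p = 0.0750), ATF4 (r = 0.52, adjusted permutation p = 0.208) and TRIB3 (r = 0.05, adjusted permutation p = 0.884). Without the 2 farthest animals those r were 0.73 and 0.64, and within the first run, with 7 animals, 0.85 (exact permutation p = 0.00218) and 0.70 (exact permutation p = 0.0901), the second run holding too few pairs. Without animal 18, r was 0.81 for HERPUD1 and 0.73 for DDIT3, and HSPA5 also passed (r = -0.80, adjusted permutation p = 0.0161). The 3 members called in Takara were among the 4 whose change moved with the neutrophil markers, and the part of neutrophil numbers in their rise was not tested. The member and marker changes share the TMM factor of each library. Among Takara heat stress libraries it was 0.69 in animal 40, 0.72 in animal 15 and 0.73 in animal 18, against 1.21 in animal 3. The correlations were not repeated with total counts as library size, and the part of this factor was not tested.

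**Figure D5:**
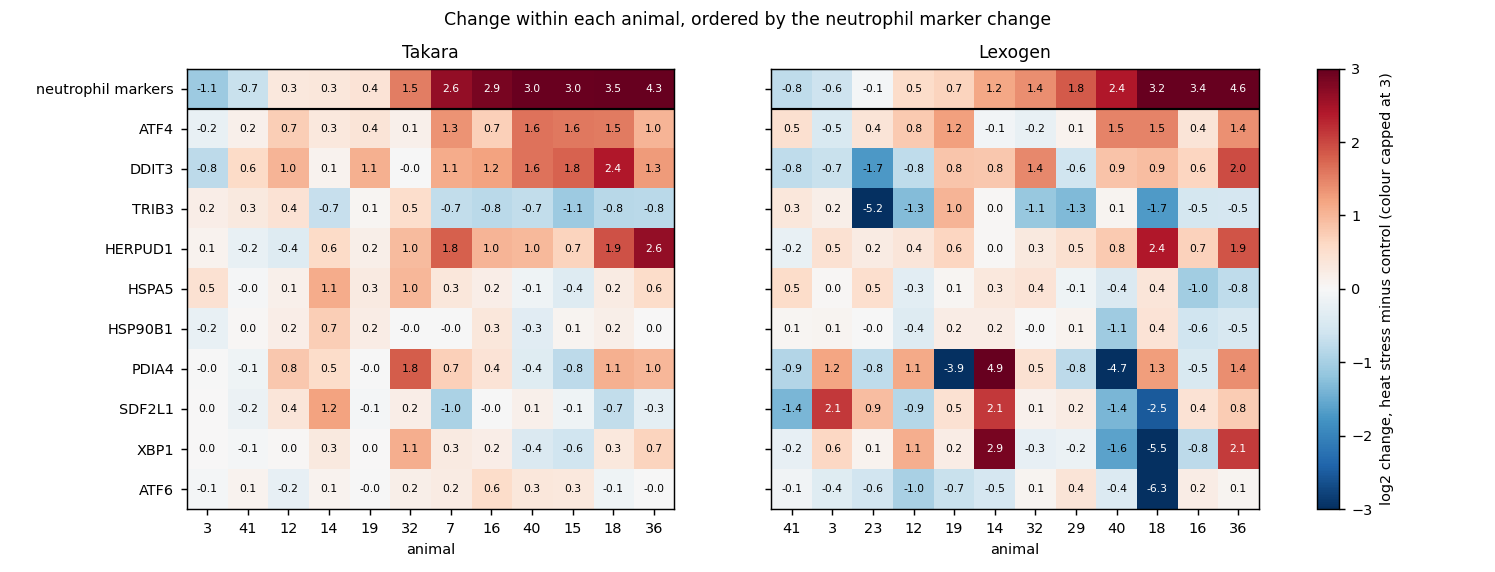
Log2 change from control to heat stress within each animal (columns, ordered by the change of the summed neutrophil markers in the top row) for each gene and kit, with colour capped at 3 in either direction. In Takara, ATF4, DDIT3 and HERPUD1 are higher towards the right, where the neutrophil markers rose up to 4.28, and TRIB3 is lower there; HSPA5, HSP90B1 and XBP1 show no such order.

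Some of the members varied together. Of 45 pairs of members, 3 had Takara changes that were correlated over the 12 animals after adjustment by both coefficients: PDIA4 with XBP1 (r = 0.93, rho = 0.94, adjusted permutation p = 0.00113 and 0.00135), ATF4 with DDIT3 (0.89 and 0.92, 0.00113 and 0.002925) and HSPA5 with XBP1 (0.81 and 0.78, 0.0279 and 0.0457). DDIT3 with TRIB3 passed by Spearman's rho alone (rho = -0.87, adjusted permutation p = 0.00585; r = -0.62, adjusted permutation p = 0.191), and not on sense counts (rho = -0.76, adjusted permutation p = 0.0675). For the first 3 pairs, without the 2 farthest animals, r was 0.83, 0.86 and 0.88. Within the runs r was 0.90 and 0.98 for PDIA4 with XBP1, 0.88 and 0.92 for ATF4 with DDIT3, and 0.92 and 0.52 for HSPA5 with XBP1. The exact permutation p-values, unadjusted, were 0.0181 and 0.00278, 0.0361 and 0.025, and 0.00694 and 0.267. HSPA5 with XBP1 thus did not pass in run 2. In Lexogen, 0 of 45 pairs passed by the same permutation test (5 at an unadjusted p under 0.05), with r from -0.67 to 0.76. Without animal 18 one Lexogen pair, HSPA5 with HERPUD1, passed by rho alone (-0.86, adjusted permutation p = 0.0499). On sense counts, which hold the PDIA4 reads missing from the unstranded count, PDIA4 with XBP1 passed by r (0.79, adjusted permutation p = 0.0309) and not by rho (0.63, adjusted permutation p = 0.140), and PDIA4 with HSPA5 passed by both (r = 0.92, rho = 0.87, adjusted permutation p = 0.00292 and 0.0126). The largest XBP1 change was that of animal 32 (1.09). Its PDIA4 change was 1.81 on unstranded and 0.80 on sense counts, where that of animal 14 was 0.83. Animal 15 had the lowest change of XBP1 (-0.59), PDIA4 (-0.78) and HSPA5 (-0.40), on sense counts too (-0.62, -0.91 and -0.40).

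The levels in the Takara libraries were centred on the mean of their time group and compared with that of HSPA5. Over these 26 libraries, and with the other members left out, the genes most like HSPA5 by Pearson's r of log2 CPM were PDIA6, a disulfide isomerase (0.94), SEC13, a coat protein of ER export vesicles (0.89), CAVIN3, a caveolar protein (0.89), STT3A, a catalytic subunit of oligosaccharyltransferase (0.88), and RAMP2, a receptor-modifying protein (0.88). Of the members, XBP1 (0.92) lay above all of these but PDIA6, with PDIA4 at 0.74, HSP90B1 at 0.68 and SDF2L1 at 0.63, whereas ATF4 (-0.37), DDIT3 (-0.44) and HERPUD1 (0.13) did not follow it. In the Lexogen libraries r was 0.33 for PDIA6, 0.41 for SEC13, 0.31 for STT3A and -0.15 for RAMP2, with no value for CAVIN3. Among the members it was 0.19 for XBP1 there and highest for HSP90B1, at 0.83. These values describe libraries that share animals, and carry no test.

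Libraries of both kits from 24 RNA samples allowed the kits to be compared within an RNA. No member passed the test of a time effect that differed between kits, nor did any gene tested (0 of 13354 by edgeR, with 526 at an unadjusted p under 0.05), so the size of difference that these libraries allow is given by the intervals below. The difference in time effect (Lexogen minus Takara) was 0.05 (95% interval -0.20 to 0.29) for ATF4, -0.0016 (-0.35 to 0.35) for HERPUD1, -0.32 (-0.92 to 0.28) for DDIT3 and -0.32 (-0.62 to -0.03; unadjusted p = 0.0342) for HSPA5. It was -0.17 (-0.41 to 0.07) for HSP90B1, 0.27 (-0.61 to 1.14) for SDF2L1 and -0.08 (-0.94 to 0.77) for XBP1. For TRIB3, ATF6 and PDIA4 it was -0.35 (-1.20 to 0.50), -0.54 (-1.39 to 0.32) and -0.59 (-1.96 to 0.78). On sense counts it was -0.09 (-0.55 to 0.37) for DDIT3, -0.40 (-0.69 to -0.11) for HSPA5 and -0.26 (-0.51 to -0.01) for HSP90B1. By the edgeR F test, HSPA5 and HSP90B1 then had unadjusted p of 0.00924 and 0.0429, both with adjusted p of 0.946. The levels did differ, in 7 of 10 members, where 71.6% of all genes differed and the median over all genes was -0.48. XBP1 was lower in Lexogen by a log2 difference of -1.77 (SE 0.21), PDIA4 by -1.16, SDF2L1 by -1.08, DDIT3 by -0.82 and TRIB3 by -0.79, whereas ATF6 (0.57) and ATF4 (0.46) were higher. HSPA5 (0.02), HERPUD1 (0.04) and HSP90B1 (-0.08) were not called, and lay above the median of all genes. On sense counts 5 members were called higher and 4 lower, in place of 2 and 5: HSPA5 (0.23, adjusted p = 0.00920), HERPUD1 (0.27, adjusted p = 0.00574) and HSP90B1 (0.15, adjusted p = 0.0455) were called higher, DDIT3 (-0.20) was no longer called lower, and PDIA4 stood at -1.49. With RLE size factors ATF6 (0.43, adjusted p = 0.0615) was no longer called and HSP90B1 (-0.21, adjusted p = 0.00337) was called lower.

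The sample numbers in the labels form 2 runs, of 8 and 7 animals, each with both times. No member had a time effect that differed between runs by edgeR at the threshold, against 2.27% of genes in Takara and 0.0222% in Lexogen. At an unadjusted p under 0.05 there were 0 in Lexogen and 2 in Takara: HSPA5 changed by -0.04 in run 1 and 0.64 in run 2 (difference 0.66, SE 0.25, unadjusted p = 0.0156, adjusted p = 0.186), and XBP1 by -0.19 and 0.43 (difference 0.60, SE 0.27, unadjusted p = 0.0351, adjusted p = 0.263). Within run 1 the Takara changes were 1.00 for ATF4, 1.37 for DDIT3 and 0.70 for HERPUD1, and within run 2 they were 0.72, 0.74 and 1.37. ATF4 and DDIT3 passed within run 1 alone (adjusted p = 0.00904 and 0.00307) and HERPUD1 within run 2 alone (adjusted p = 0.0389). Within Lexogen the ATF4 change was 0.90 in run 1 (adjusted p = 0.0186) and 0.37 in run 2, and the HERPUD1 changes were 0.81 and 0.67, neither called.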

How the data were processed

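Blood RNA of 15 calves gave 54 libraries, 27 per kit. The authors trimmed reads with Trimmomatic 0.39 (quality reports by FastQC 0.11.9 and MultiQC 1.14), mapped them with STAR 2.7.10b to ARS-UCD2.0 and deposited raw counts of uniquely mapped reads per gene, in unstranded, sense and antisense columns, without normalization or replicate pooling. The unstranded column drops a read that overlaps 2 genes, which lowers genes with neighbours. The 4 rows above the genes were left out of library sizes; unmapped reads were 6.94% to 23.5% of filtered reads in Takara and 2.20% to 7.46% in Lexogen.

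Groups came from the labels. The main design had time alone, 13 against 13 libraries per kit, in edgeR 4.0.16 (R 4.3.3) with filterByExpr, TMM and the quasi-likelihood test; DESeq2 1.42.0, other scalings, no filter, sense counts, the animal as a replicate block, animal 20 as either time, the runs of sample numbers and each animal left out were alternatives. Sense counts with the block, and the correlations on sense counts and without animal 18, were added after seeing the data. Kit and run effects were tested as interaction or level terms, with the RNA sample as a block for kits. Changes within animals used log2(CPM + 0.5), and correlations two-sided permutation tests with 100000 resamples (exact within runs; Python 3.11.15, SciPy 1.17.1). Same-numbered libraries come from 1 animal; their centred levels correlated over 0.1 in 11 of 12 Takara pairs (median 0.23) and 2 of 12 Lexogen pairs (median 0.02). Steps were tested on simulated data.

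The members and lists were chosen with earlier results of these data known. Named were all 10 members, the gene farthest up and farthest down among Takara calls in each of 6 groups, the 5 genes most like HSPA5, and markers at 0; the other called genes of the list and the called markers were named after their values were seen. Sequences were not used here. Of the gene IDs, 30271 of 32637 matched RefSeq. The 46 markers included GP1BB, which was not measured.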

Additional observations from a re-analysis of the deposited data

Results flagged for a closer look

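The libraries of animal 20, in no comparison above, held levels above those of every control for ATF4 and DDIT3 in both kits, on total-count CPM. ATF4 stood at 466.7 in Takara (controls up to 294) and at 764.8 in Lexogen (controls up to 315.7). DDIT3 stood at 63.2 in Takara (controls up to 41.4) and at 43.1 in Lexogen (controls up to 22.8). The other 8 members did not exceed the highest control in either kit. TRIB3 stood at 10.1 in Takara, below the lowest control (22.96) and the lowest heat stress library (12.3). In Lexogen TRIB3 stood at 6.67, within the control range (4.70 to 35.4). ATF6 stood at 20.4 in Takara, also below the lowest control (23.9), but above the lowest heat stress library (18.3). In Lexogen ATF6 stood at 38.7, within the control range (25.6 to 72.4). The label gives heat stress for this animal and the design table of the study gives the control time, so these values are given without a group.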

How the results depend on the processing

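Of 1064 values recomputed under the alternatives, 998 kept their side of the threshold, 60 were weaker, 3 stronger and 3 reversed. Within these 1064 values, 62 changed sign without a call either way, so not all kept their direction. Called genes in Takara were 3 members, 15 other genes of the response and 3646 of all genes. With animal 20 as control they were 0, 0 and 0 (3804 genes at an unadjusted p under 0.05), within run 2 they were 1, 8 and 931, within run 1 the list had 9, with total counts as library size 8 (4 higher and 4 lower, in place of 13 and 2), and with 1 animal left out 3 to 3, 13 to 20 and 2669 to 4082. In Lexogen they were 2, 2 and 616. These became 0, 0 and 66 with the animal as a replicate block, 0, 0 and 67 with sense counts and that block, 0, 0 and 2 with animal 20 as control, and 0, 0 and 0 within run 2 (1275 at an unadjusted p under 0.05). Members called in Lexogen were 1 within run 1, with run as a covariate and with total counts, and 1 to 2 with 1 animal left out; the list had 1 with sense counts and 2 to 2 with 1 animal left out; all genes were 402 within run 1, 1006 with DESeq2, 3273 without the filter and 348 to 747 with 1 animal left out. TXNDC11 in Lexogen reversed to -0.12 with sense counts and -0.19 with the block added, and the kit difference of HSP90B1 to 0.15 with sense counts. Apart from the changes given here and beside the results, the block changed no call of a member. The cause of these changes was not tested. The lowest Lexogen counts of a library were 0 for ATF6, 1 for PDIA4, 2 for XBP1, 4 for TRIB3 and 7 for SDF2L1, too few for a precise level there.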
